A study of Mus musculus with 39 samples.

Results

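The genes described here encode the proteins of the mitochondrial ribosome. They were taken as every protein-coding row of the count table whose mouse symbol starts with Mrpl or Mrps followed by a digit, leaving out names that hold -ps. The rule found 77 of the 43430 rows of the table. Mrpl33 was not analysed here. By the subunit in which each protein sits, 50 of the 77 belong to the large subunit. Of these, 29 were classed as having a bacterial counterpart and 21 as mitochondria-specific. A further 26 belong to the small subunit, 16 classed with a bacterial counterpart and 10 as mitochondria-specific. The last, Mrps36, kept its ribosomal name but is known as a component of the 2-oxoglutarate dehydrogenase complex, and was not counted in either subunit. Mrps18a and Mrps30 were counted with the large subunit, where their proteins lie despite the names. Mrps18a and Mrps18b were classed as mitochondria-specific, although they are related to bacterial S18.

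The mitochondrial ribosome sits inside the mitochondrion and makes the few proteins that mitochondrial DNA encodes, all of them parts of the respiratory chain and ATP synthase. Its ribosomal RNAs come from mitochondrial DNA, whereas all of its proteins are encoded in the nucleus, made in the cytosol and imported. The genes for these proteins are known as housekeeping genes whose promoters often carry sites for activators such as NRF1, GABP of the ETS family and YY1. Monocytes that enter the injured lung become alveolar macrophages, cells that divide and rely heavily on mitochondrial metabolism.

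RNA sequencing was carried out on 39 libraries of sorted lung cells of C57BL/6J mice. Monocytes of the lung were taken from naive animals. Siglec F-low alveolar macrophages of monocyte origin were taken after bleomycin, an agent used to provoke lung injury and fibrosis. The 8 groups were young saline, young ISRIB, old saline and old ISRIB monocytes, and the same 4 kinds of macrophages. There were 4 libraries of young ISRIB macrophages and 5 of every other group. ISRIB acts on the translation initiation factor eIF2B and blocks the signal by which the integrated stress response lowers translation. It was given daily from day 7 after bleomycin, and macrophages were collected on day 21. The timing of ISRIB in naive mice was not given in the sources used here. For young mice the labels state 8 to 12 weeks and the series text 3 to 5 months. For old mice these are over 18 months and 18 to 24 months. No monocytes of bleomycin mice or macrophages of naive mice were analysed here, so cell type and bleomycin cannot be told apart. In sorted bulk samples, fewer cells of a type and less RNA per cell cannot be told apart. The labels do not say that replicates were separate animals, so p-values measure the spread between these libraries, which may be in part technical.

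The libraries held 4595331 to 16056708 counts, with 12324 to 17313 genes detected. No pair of libraries within a group agreed within sampling noise (chi-square per degree of freedom of 6.75 to 49.5 over 76 pairs). One library, young saline monocyte replicate 4, stood apart from its group, with a mean correlation of 0.938 with its group's other libraries, and the results it moved most are given with and without it. The labels of both cell types matched their defining genes. Levels are given as CPM, each count scaled to a common library size. The sialic acid receptor gene Siglecf lay at 47.2 to 120.3 CPM in saline macrophages against 0 to 1.44 in saline monocytes. The monocyte gene Ly6c2 lay at 402.8 to 639.6 CPM in saline monocytes and at no more than 7.58 in saline macrophages. Of 12 genes of mature alveolar macrophages, 12 were higher in the macrophages, while 6 of 7 genes of classical and 6 of 7 of nonclassical monocytes were lower. Over all genes tested, 35.8% were higher and 34.2% lower in saline macrophages than in saline monocytes.

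For 68 of the 77 genes, RefSeq (GRCm38.p6) gives a promoter, taken as the 250 bases before to the 50 bases after the start of transcription. The others, which are only named, are Mrpl4, Mrpl13, Mrpl15, Mrpl19, Mrpl38, Mrpl54, Mrps28, Mrps34 and Mrps35. Each promoter was searched on both strands for GCGCATGCG (NRF1), CCGGAAGT (ETS family, to which GABP belongs), AAGATGGCG (YY1) and CACGTG (the E-box bound by MYC and MAX, the same on both strands). The ETS letters were found in 11 of the 68 promoters (16.2%), against 3.89% of 32851 promoters of all genes and 9.35% of the 9580 promoters of genes tested here. Those for YY1 were found in 8 (11.8%, against 1.4% and 3.7%), those for NRF1 in 7 (10.3%, against 1.75% and 4.19%) and the E-box in 5 (7.35%, against 7.15% and 11.7%). At least 1 of the 4 was present in 27 promoters (39.7%, against 13.1% of all and 25.7% of tested genes). It was present in 14 of 38 promoters of genes that were higher in saline macrophages than in saline monocytes and in 13 of 30 of the others. A match of letters describes the sequence and does not show that a factor binds it.

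The following 5 promoters belong to genes named in the results below. Each is 150 bases long, ends before the start of transcription and is read on the plus strand, the strand of its gene, 5′ to 3′ in GRCm38.p6. Capitals mark the searched letters. Mrpl27 (chr11:94653617-94653766), which was higher in macrophages, holds the ETS letters. Mrps27 (chr13:99344636-99344785), a pentatricopeptide-repeat protein of the small subunit that was also higher, holds them on the opposite strand. Mrpl9 (chr3:94443168-94443317), which was lower, ends in the NRF1 letters, read on both strands over 10 bases. The promoters of Mrpl30 (chr1:37890327-37890476), which was lower in macrophages, and of Mrpl28 (chr17:26123350-26123499) hold none of the 4 in the part shown. Mrpl28 passed as lower with ISRIB in macrophages, a call that was lost in 15 of 27 alternatives.
Mrpl27: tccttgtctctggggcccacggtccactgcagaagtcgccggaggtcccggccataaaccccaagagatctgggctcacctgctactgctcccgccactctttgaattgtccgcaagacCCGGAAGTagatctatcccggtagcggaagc
Mrps27: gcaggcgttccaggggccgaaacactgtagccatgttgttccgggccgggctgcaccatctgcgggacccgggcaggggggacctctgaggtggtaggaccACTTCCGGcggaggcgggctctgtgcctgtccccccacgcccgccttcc
Mrpl9: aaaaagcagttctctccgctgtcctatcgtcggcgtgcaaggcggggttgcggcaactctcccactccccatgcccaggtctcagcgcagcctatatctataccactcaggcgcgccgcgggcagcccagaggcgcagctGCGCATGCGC
Mrpl30: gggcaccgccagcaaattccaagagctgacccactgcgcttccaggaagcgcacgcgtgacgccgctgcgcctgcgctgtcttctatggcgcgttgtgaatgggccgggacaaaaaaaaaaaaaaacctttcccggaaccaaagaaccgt
Mrpl28: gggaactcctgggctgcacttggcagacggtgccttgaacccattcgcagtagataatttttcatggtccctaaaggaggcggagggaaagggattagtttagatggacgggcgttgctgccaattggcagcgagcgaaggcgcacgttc

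Many of the genes lie close to another gene. Of the 77, 33 (42.9%) start within 1000 bases of another protein-coding gene on the opposite strand, against 1982 of 12028 protein-coding genes tested (16.5%). Mrpl46 and Mrps11 form such a pair with each other. Their summed exons had a median length of 2255 bases against 4467.5 for protein-coding genes tested, with nearly the same GC content (50.4% against 50.1%). Since the strand setting of the counting was not given in the sources used here, reads from overlapping exons cannot be assigned with certainty. Exon bases were shared with another annotated gene by 32 of the 77, and by over 20% of their length in 10. These 10 are therefore uncertain. The largest shares are those of Mrpl53 (88.0%, with Gm42688 on the same strand), Mrps34 (77.8%) and Mrps25 (69.8%, with Nr2c2 on the opposite strand).

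Nearly all of the genes were transcribed in every group. A count was present in all 39 libraries for 76 of the 77, the exception being Mrpl53, which was at 0 in 2 libraries. In CPM per kilobase of exon, the highest median levels over the 39 libraries were those of Mrps21 (36.4), Mrpl52 (26) and Mrpl43 (25.9). The lowest were those of Mrpl53 (0.674), Mrpl23 (0.851) and Mrpl47 (1.34). Mrps21 is the small subunit's homologue of bacterial S21, and Mrpl23 lies at the rim of the tunnel through which the new protein leaves. Within groups the libraries varied least for Mrpl4, Mrpl3 and Mrpl10, with coefficients of variation of 13.2%, 13.4% and 13.6%, and most for Mrpl53 (80.4%), Mrps6 (43.6%) and Mrpl23 (38.7%).

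Added together, the 77 genes had a higher mean level in each macrophage group than in any monocyte group. Their summed level was 1384.4 ± 210.0 CPM (SD, n = 5) in young saline monocytes, 1253.4 ± 86.9 in young ISRIB monocytes, 1383.9 ± 82.0 in old saline monocytes and 1266.2 ± 79.8 in old ISRIB monocytes (n = 5 each). In macrophages it was 1743.5 ± 91.2 in young saline mice (n = 5), 1573.0 ± 114.0 in young ISRIB mice (n = 4), 1611.8 ± 112.5 in old saline mice (n = 5) and 1575.3 ± 47.1 in old ISRIB mice (n = 5). One monocyte library, young saline replicate 4 at 1717.0 CPM, and old saline monocyte replicate 3 at 1526.5 reached into the range of the macrophages, whose lowest library was at 1446.5 CPM. Without that young saline library its group was at 1301.3 ± 113.0 CPM (n = 4). The remaining monocyte libraries lay below every macrophage library. Young saline macrophages stood highest, from 1655.8 to 1877.2 CPM. Their range overlapped those of young ISRIB and old saline macrophages and lay above that of old ISRIB macrophages.

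**Figure D1:**
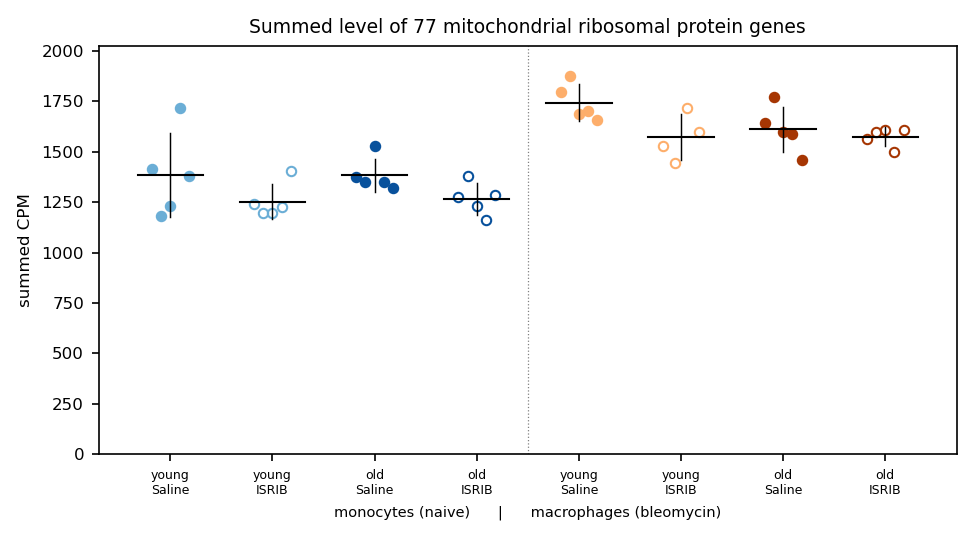
Summed level of the 77 genes in CPM (vertical axis) in each library of the 8 groups (horizontal axis), with the group mean as a horizontal and the SD as a vertical line. Macrophage groups average 1573.0 to 1743.5 and monocyte groups 1253.4 to 1384.4, and young saline monocyte replicate 4 stands at 1717.0.

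Macrophages of bleomycin mice were first compared with monocytes of naive mice, both ages together, within the saline mice. Most mitochondrial ribosomal genes that differed were higher in the macrophages. By edgeR's quasi-likelihood test over all 39 libraries (adjusted p under 0.05 over 13587 genes), 41 of the 77 were higher and 6 were lower, and 30 did not pass. Over all genes tested, 70.0% passed, 35.8% as higher and 34.2% as lower, while of the 77 genes 53.2% were higher and 7.79% lower. Their median log2 change was 0.35, against -0.00 over all genes, and 64 of the 77 had a change above 0, against 49.9% of all genes. The changes were mostly small: 9 of the 77 had macrophage libraries entirely above the monocyte libraries (15.4% of all genes) and 0 entirely below (12.1%).

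The balance between higher and lower genes moved with 1 library and with 1 processing choice. Without that library, 46 were higher and 6 lower, with a median log2 change of 0.40. Mrpl34 no longer passed (0.28, edgeR adjusted p = 0.0633), and Mrpl14, Mrpl23, Mrpl46, Mrps7, Mrps11 and Mrps21 passed as higher. With offsets for each gene's GC content and exon length, 31 were higher and 10 lower. That alternative moved the median of all genes to -0.12 and that of the 77 genes to 0.15.

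The same comparison in ISRIB mice was made between the other libraries of the same fit, so both share its scaling and its estimates of spread. There 46 of the 77 were higher and 5 lower (all genes 70.0% called, 35.6% higher and 34.4% lower), with a median log2 change of 0.40 against -0.00 over all genes, and 64 of 77 lay above 0 (49.8% of all genes). Macrophage libraries lay entirely above monocyte libraries for 14 genes (17.2% of all genes). With the GC and length offsets the counts became 34 and 9, and the median 0.21. Of the genes higher in saline mice, 38 were also higher in ISRIB mice, which is 92.7% of the saline and 82.6% of the ISRIB list. Of those lower, 5 were shared, 83.3% of the saline list and all of the ISRIB list. Mrpl20, Mrpl28 and Mrpl34 passed as higher in saline mice alone, and Mrpl14, Mrpl18, Mrpl36, Mrpl46, Mrps7, Mrps11, Mrps21 and Mrps23 in ISRIB mice alone. Passing in 1 set of mice alone does not show that the sets differ. Across the 77 genes, which share libraries and their depth within each comparison, the changes in saline and ISRIB mice correlated with Pearson's r = 0.917 and Spearman's rho = 0.903. Over all genes r was 0.949. Genes with a lower level tended to have larger changes (rho = -0.38 in saline and -0.35 in ISRIB mice across the 77).

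**Figure D2:**
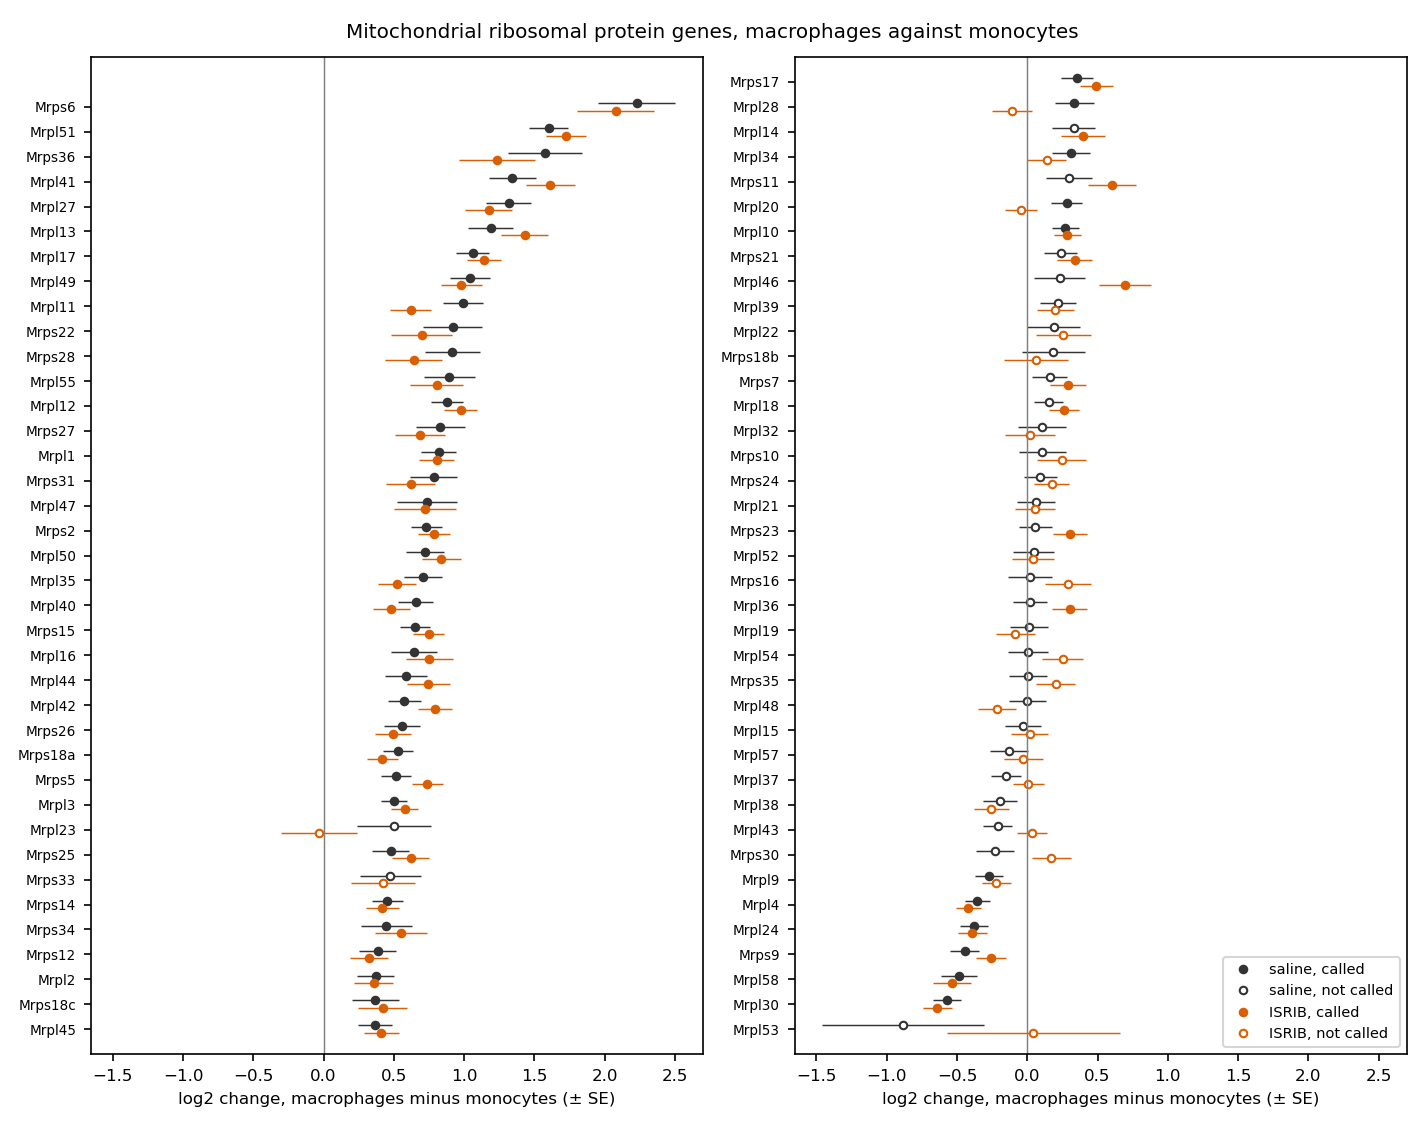
Log2 change of each of the 77 genes in macrophages against monocytes (horizontal axes, with SE) by gene (vertical axes), dark for saline and orange for ISRIB mice, with filled symbols where edgeR's adjusted p is under 0.05. In saline mice 41 genes are filled above 0 and 6 below, from -0.57 for Mrpl30 to 2.23 for Mrps6 among those that passed.

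In saline mice, where 35.8% of all genes were higher and 34.2% lower, 16 of the 29 large-subunit genes with a bacterial counterpart were higher and 4 lower (median log2 change 0.33), and of the 21 mitochondria-specific large-subunit genes 9 were higher and 1 lower (0.22). Of the 16 small-subunit genes with a bacterial counterpart 9 were higher and 1 lower (0.36), and of the 10 mitochondria-specific ones 6 were higher and 0 lower (0.48; the 4 others did not pass). In ISRIB mice the same classes had 16 higher and 3 lower, 10 and 1, 12 and 1, and 7 and 0, with medians of 0.29, 0.25, 0.42 and 0.52. The difference between classes was not tested.

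The largest increase was that of Mrps6, the homologue of bacterial S6 in the small subunit (chromosome 16, 92058270 to 92112227 in mm10, plus strand). It lay at 0.737 to 3.87 CPM with a median of 1.91 in saline monocytes (n = 10) and at 4.41 to 12.8 CPM with a median of 9.84 in saline macrophages (n = 10). Every saline macrophage library was above every saline monocyte library, and in ISRIB mice the highest monocyte library (4.58) was also below the lowest macrophage library (6.32). The change was 4.69-fold in saline mice (log2 2.23 ± 0.28 SE, edgeR adjusted p = 3.11e-09), with a log2 change of 2.08 in ISRIB mice. Mrps6 shares 19.9% of its exon bases with Gm49711 on the same strand, and the part of those reads was not tested.

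Mrpl51, a mitochondria-specific protein of the large subunit, was the next. It ran from 6.58 to 13.6 CPM (median 10.4) in saline monocytes and from 22.8 to 43.4 (median 30.9) in saline macrophages, so the groups did not overlap. The fold was 3.04 (log2 1.603 ± 0.14, edgeR adjusted p = 3.19e-13), and the log2 change was 1.73 in ISRIB mice. Mrps36, the 2-oxoglutarate dehydrogenase component, ran from 0.204 to 4.11 CPM (median 2.56) and from 5.17 to 13.2 (median 5.96). It did not overlap either, and its fold was 2.98 (log2 1.57 ± 0.26, edgeR adjusted p = 1.76e-06).

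Mrpl27, whose bacterial counterpart reaches toward the site of peptide bond formation and whose promoter with ETS letters is printed above, ran from 4.91 to 12.9 CPM (median 7.61) in saline monocytes and from 13.9 to 26.4 (median 19.9) in saline macrophages. The groups did not overlap, and the fold was 2.49 (log2 1.32 ± 0.16, edgeR adjusted p = 3.04e-09). Mrpl13, a core protein of the large subunit, ran from 2.66 to 14 CPM (median 10.9) and from 19 to 33.9 (median 22.6). Again no library overlapped, and the fold was 2.28 (log2 1.19 ± 0.16, edgeR adjusted p = 3.08e-08). Mrpl41, a mitochondria-specific large-subunit protein, ran from 4.7 to 17 CPM (median 8.4) and from 16.4 to 31.4 (median 22.4). Its groups overlapped through young saline monocyte replicate 4 alone, the library at 17 CPM, and its fold was 2.54 (log2 1.34 ± 0.17, edgeR adjusted p = 3.89e-09).

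**Figure D3:**
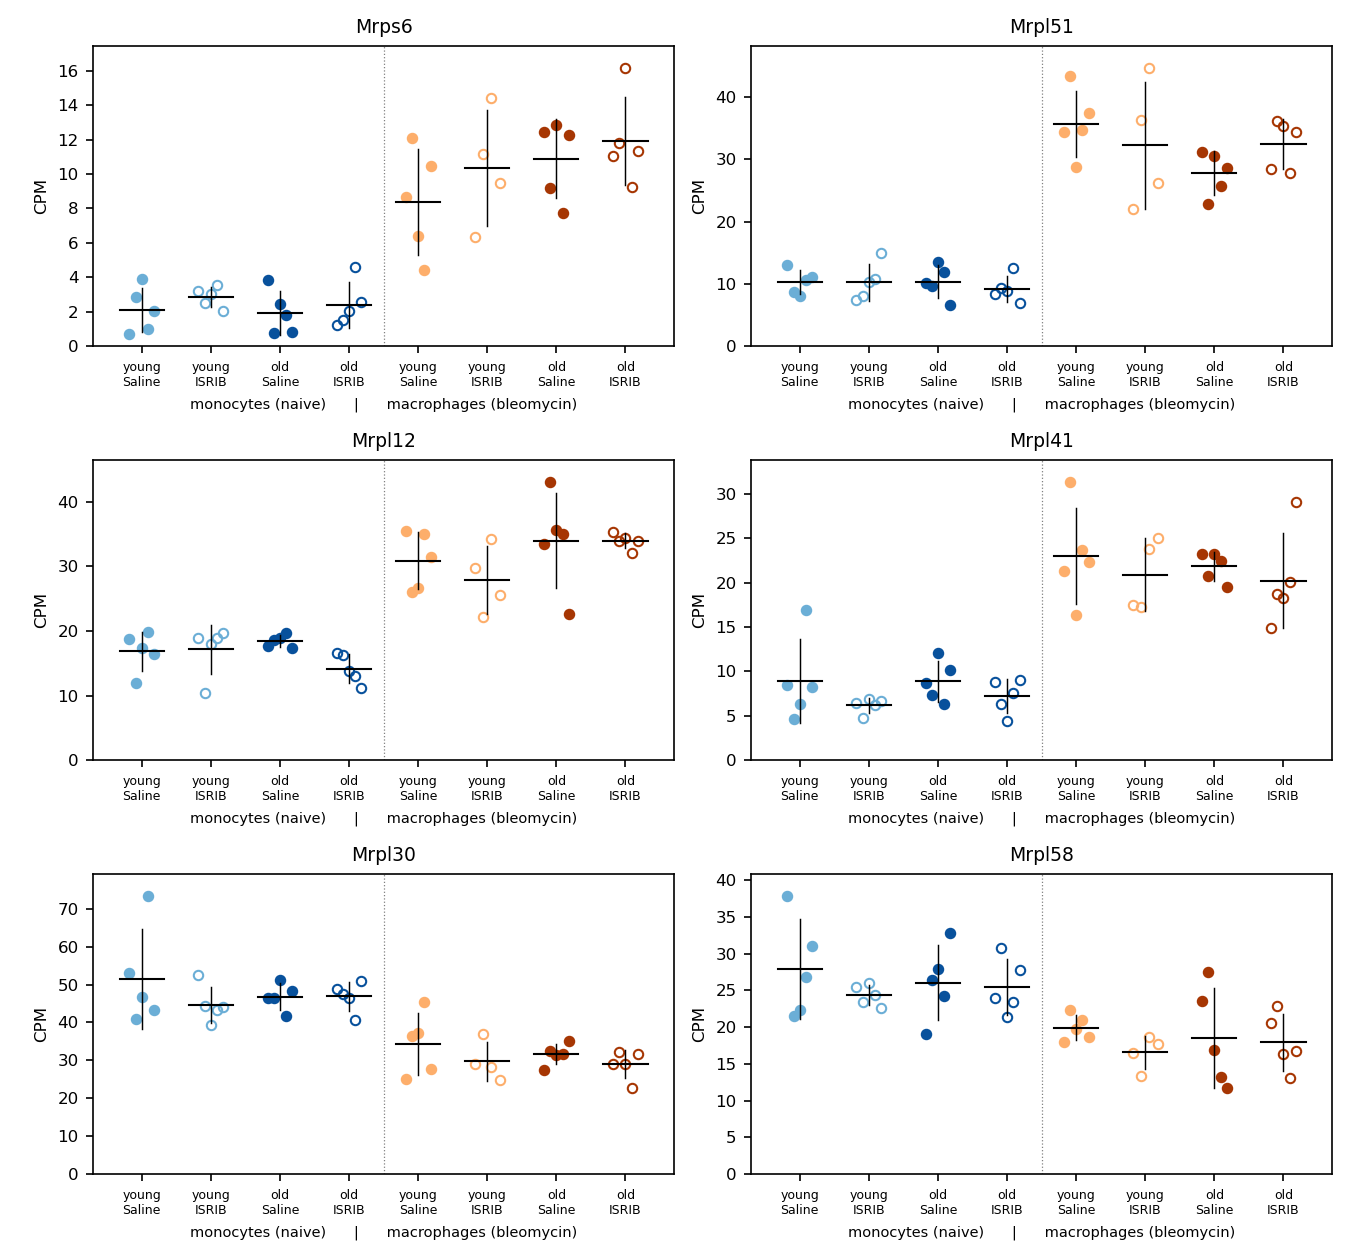
CPM (vertical axes) of Mrps6, Mrpl51, Mrpl12, Mrpl41, Mrpl30 and Mrpl58 in each library of the 8 groups (horizontal axes). Filled points are saline and open points ISRIB, light is young and dark is old, blue is monocytes and orange to brown macrophages, with lines for the mean and SD. The first 4 genes stand higher in macrophages, as Mrpl51 with medians of 30.9 against 10.4 in saline mice, and the last 2 stand lower.

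Mrpl12, Mrpl11 and Mrpl10 belong to the large subunit's flexible stalk and its base, where translation factors dock. All 3 passed as higher, as did 35.8% of all genes. Mrpl12, which forms the stalk, ran from 11.9 to 19.8 CPM (median 18.1) in saline monocytes and from 22.6 to 43.1 (median 34.2) in saline macrophages, without overlap. Its fold was 1.84 (log2 0.88 ± 0.11, edgeR adjusted p = 9.47e-09). Mrpl11 at the base of the stalk rose by 0.99 and Mrpl10, which anchors it, by 0.27 on the log2 scale (edgeR adjusted p = 8.62e-08 and 0.0122). These 3 were put together after their values were seen, and other proteins near the stalk were not listed. Of the proteins that set decoding accuracy in the small subunit, Mrps12 ran from 9.8 to 18.9 CPM (median 12.5) and from 11.8 to 23.1 (median 17), overlapping groups with a log2 change of 0.38 ± 0.13 (edgeR adjusted p = 0.0092). Mrps5 rose by 0.52 in saline and 0.74 in ISRIB mice on the log2 scale.

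Mrps18a, Mrps18b and Mrps18c are 3 copies related to bacterial S18 that sit at different places, Mrps18a in the large and the other pair in the small subunit. Mrps18a ran from 12.9 to 22 CPM (median 17.1) in saline monocytes and from 19.2 to 35.6 (median 24.3) in saline macrophages, a log2 change of 0.53 ± 0.11 (edgeR adjusted p = 4.86e-05). Mrps18c ran from 11.6 to 30.7 CPM (median 16.8) and from 14.4 to 33.5 (median 24.0), a log2 change of 0.37 ± 0.17 (edgeR adjusted p = 0.0472), which was 0.50 (0.0053) without young saline monocyte replicate 4. Mrps18b ran from 3.72 to 13.8 CPM (median 5.99) and from 4.71 to 15.4 (median 8.08), and did not pass (0.19 ± 0.22, adjusted p = 0.46). All 3 had overlapping groups, and their differences from each other were not tested. Mrps18b shares 30.5% of its exon bases with Gm16279 on the opposite strand. Mrps18c shares 23.2% with Gm43511 on the same strand, and the part of those reads was not tested. Mrpl44, whose protein has an RNase III-like fold, ran from 8.03 to 15.7 CPM (median 11) and from 7.72 to 22.1 (median 17.2). It rose by 0.59 ± 0.15 on the log2 scale (edgeR adjusted p = 0.000699), with overlap through young saline macrophage replicate 3.

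The genes that were lower in macrophages changed less than the highest ones. Mrpl30, a core protein of the large subunit, ran from 40.9 to 73.4 CPM (median 46.6) in saline monocytes and from 25.1 to 45.5 (median 32.1) in saline macrophages, with slight overlap. In ISRIB mice it ran from 39.4 to 52.5 and from 22.8 to 36.9 without overlap. It fell by 0.57 ± 0.10 on the log2 scale in saline mice (edgeR adjusted p = 3.83e-06) and by 0.64 in ISRIB mice. Mrpl58, a protein of the large subunit with peptidyl-tRNA hydrolase activity that can free stalled ribosomes, ran from 19 to 37.9 CPM (median 26.6) and from 11.7 to 27.5 (median 19.2). Its groups overlapped, and it fell by 0.49 ± 0.13 (edgeR adjusted p = 0.00121). It was the 1 mitochondria-specific large-subunit gene that fell.

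Mrpl4 and Mrpl24, which lie along the exit tunnel, also fell, by 0.36 ± 0.09 and 0.38 ± 0.10 on the log2 scale (edgeR adjusted p = 0.000442 and 0.000908). Mrpl4 ran from 43.1 to 64.8 CPM (median 49.9) in saline monocytes and from 33.5 to 52.6 (median 36.2) in saline macrophages. Mrpl24, which shares exon bases with Rrnad1 on the opposite strand, ran from 36.5 to 51.1 (median 43.8) and from 19.1 to 39.2 (median 35). Other proteins near the tunnel did not move with them: Mrpl17 rose by 1.06 and Mrpl45, which holds the ribosome to the inner membrane, by 0.37, while Mrpl22 and Mrpl23 did not pass (0.19 and 0.50). These genes were grouped after their values were seen.

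Mrps9, the homologue of bacterial S9, ran from 21.5 to 40.8 CPM (median 36.5) in saline monocytes and from 20.4 to 29.5 (median 25.3) in saline macrophages. It fell by 0.45 ± 0.10 on the log2 scale (edgeR adjusted p = 0.000162), and was the 1 small-subunit gene that fell. Mrpl9, with the NRF1 letters in its promoter, ran from 26.9 to 50.6 CPM (median 36.5) and from 26.5 to 37.9 (median 30.3). It fell by 0.27 ± 0.10 (edgeR adjusted p = 0.014), with wide overlap. That call was lost when only the saline groups entered the fit (adjusted p = 0.0697) and without young saline monocyte replicate 5 (0.064). The lowest fitted change of all was -0.88, that of Mrpl53, which did not pass.

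Opposite-strand neighbours did not all move alike. Mrpl51 and its neighbour Ncapd2, a condensin gene, had log2 changes of 1.603 and 2.67, Mrpl41 and Pnpla7 of 1.34 and 1.29, and Mrpl13 and Mtbp of 1.19 and 1.05. Mrpl49 rose by 1.05 where its neighbour Fau, which encodes a protein of the cytosolic ribosome, changed by -0.92. Mrpl44 rose by 0.59 where Wdfy1 changed by -0.57. Mrpl57 changed by -0.13 beside the mitotic gene Ska3 at 3.51. These pairs were named after their values were seen, and not all pairs are given. Mrpl13 shares 4.16% of its exon bases with Mtbp and Mrpl44 7.66% with Wdfy1, and the part of those reads was not tested.

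Other parts of mitochondrial protein synthesis were examined as lists chosen with earlier results known, in the same comparison of saline mice. Over all genes tested, 35.8% were higher and 34.2% lower there, and whether any list stood apart from these shares was not tested. Of 5 mitochondrial ribosomal proteins with other symbols, 3 were higher and 0 lower. These were Aurkaip1, Gadd45gip1 and Chchd1, with log2 changes of 0.54, 0.65 and 0.35, while the GTP-binding Dap3 (0.16) and the pentatricopeptide-repeat Ptcd3 (0.00) did not pass. Of 16 translation factors 7 were higher and 3 lower. Gfm1, the elongation factor that moves the ribosome along, rose by 0.79, and Oxa1l, which inserts new proteins into the inner membrane, and Mtfmt, which formylates the initiator methionine, changed by -0.57 and -0.75. Of 20 genes for mitochondrial aminoacyl-tRNA synthetases and the glutamine amidotransferase 8 were higher and 4 lower, among them Nars2 (1.62) and Iars2 (0.56). Of 26 assembly factors 11 were higher and 6 lower, among them C1qbp (1.14), Rcc1l (1.27) and Rbfa (-1.04). Of 18 genes for transcription and RNA handling in mitochondria 3 were higher and 2 lower, including Trmt10c (0.65) and Grsf1 (-0.47).

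Of 13 listed messages that the mitochondrial ribosome translates, 7 could be tested, and all 7 were higher in saline macrophages (35.8% of all genes), with log2 changes of 0.62 to 0.95. They were led by mt-Nd1 (0.95), mt-Nd2 (0.91) and mt-Cytb (0.87), subunits of respiratory complexes I and III. Of 11 activators of nuclear genes for mitochondria, 6 were lower and 3 higher (34.2% and 35.8% of all genes). Nrf1, Gabpb2, a subunit of GABP, and Yy1 changed by -0.85, -1.11 and -0.59. Ppargc1b, a coactivator of mitochondrial genes, rose by 1.84.

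Markers of division and of other cells moved with this comparison. The summed level of 20 proliferation genes was 168 to 234 CPM in saline monocytes and 491 to 1172 in saline macrophages, with 20 of 20 higher. Summed endothelial genes were at 22.7 to 65.7 CPM against 148 to 278, led by Vwf, epithelial genes at 3.17 to 19.8 against 54.2 to 132, and fibroblast genes at up to 0.956 against 1.43 to 27. The part of these in the changes of the ribosomal genes was not tested.

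**Figure D4:**
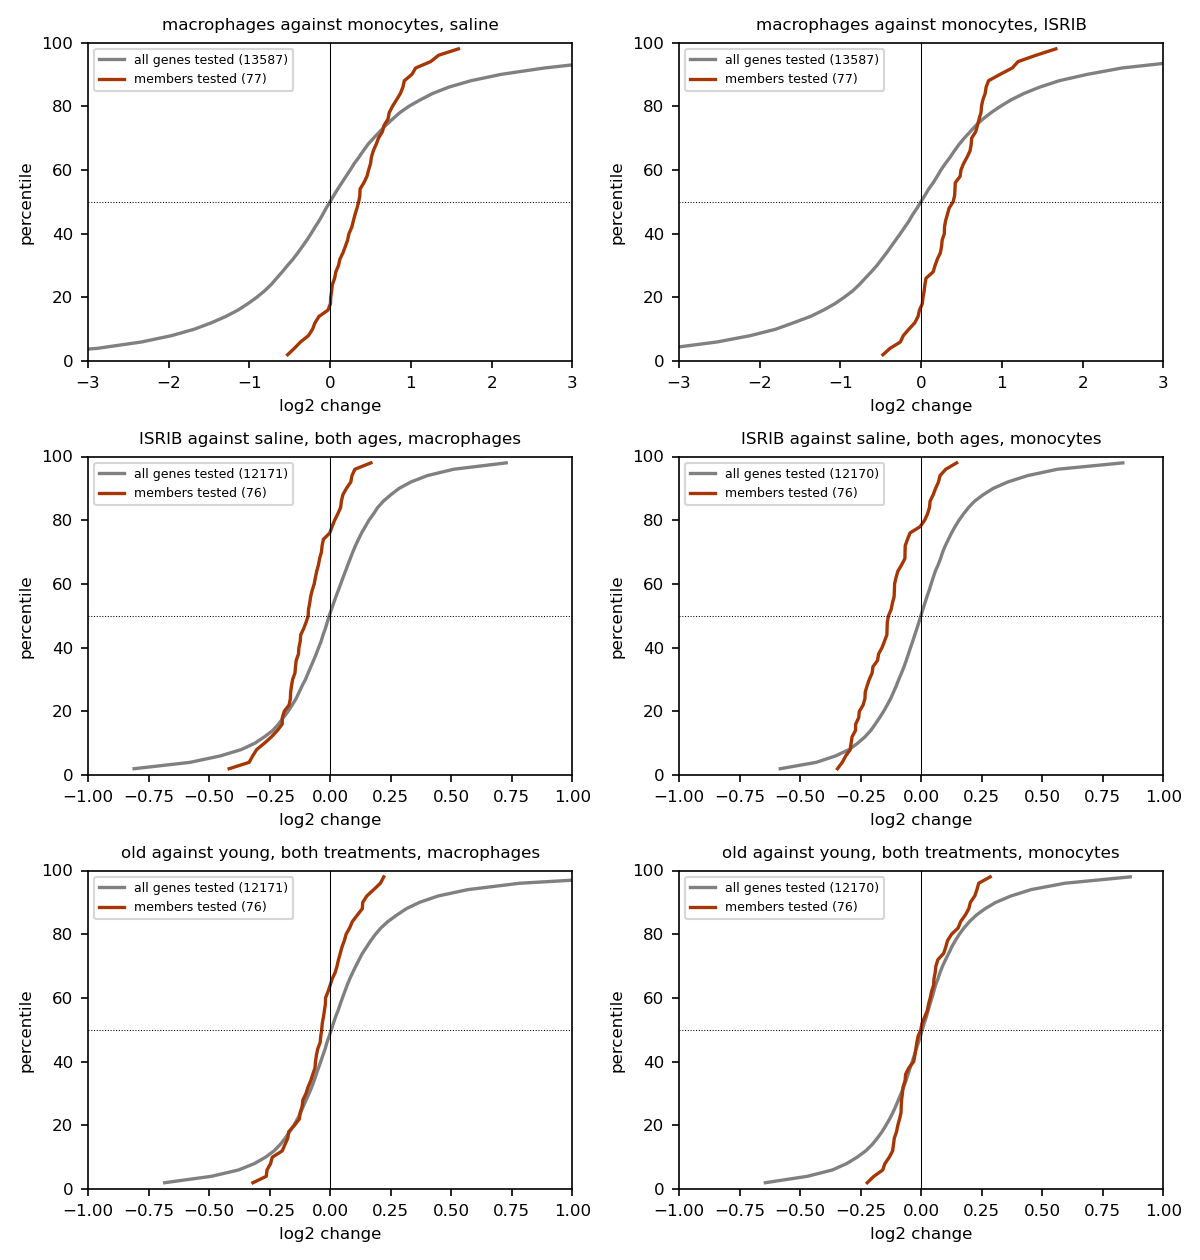
Percentile (vertical axes, in percent) by log2 change (horizontal axes) for the mitochondrial ribosomal genes (members, brown) and for all genes tested (grey) in 6 comparisons. At the middle of the range the ribosomal genes lie to the right of all genes for macrophages against monocytes (median 0.35 against -0.00 in saline mice) and to the left for ISRIB (medians of -0.09 in macrophages and -0.14 in monocytes), and their curve is steeper.

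The effect of ISRIB on macrophages of bleomycin mice was then examined, averaged over both ages. One mitochondrial ribosomal gene passed as lower, Mrpl28, the homologue of bacterial L28 in the large subunit (chromosome 17, 26123500 to 26126613 in mm10, plus strand). Its call was lost in 15 of 27 alternatives. The other 75 of the 76 tested did not pass by edgeR's quasi-likelihood test, fitted to the 19 macrophage libraries. Over all 12171 genes 0.83% passed, 0.378% as lower, so 1 call among 76 genes says little about the set. Most of the ribosomal genes had a negative change, 58 of 76, with a median log2 change of -0.09 against -0.00 over all genes, of which 50.8% were negative. At an unadjusted p under 0.05, 5 were lower and 0 higher (Mrpl11, Mrpl28, Mrpl48, Mrpl52 and Mrps22), against 8.15% of all genes lower and 8.44% higher.

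Mrpl28 stood at 26.9, 37, 34.3, 30.8 and 23.4 CPM in young saline macrophages and at 19.9, 18.9, 21.7 and 18.6 in young ISRIB macrophages. In old mice it stood at 31.1, 28, 29.1, 35.8 and 19.9 CPM with saline and at 18.8, 19.4, 21.0, 21.2 and 27.9 with ISRIB. In young mice every saline library lay above every ISRIB library, and the share of all genes that did so is not given here. In old mice the groups overlapped through saline replicate 5 alone, at 19.9. Over both ages the mean was 20.8 ± 2.87 CPM (SD, n = 9) with ISRIB and 29.6 ± 5.37 (n = 10) with saline, a log2 change of -0.51 ± 0.12 SE (edgeR adjusted p = 0.0341). The call did not hold when all 39 libraries were fitted together (-0.52, adjusted p = 0.101), with GC and length offsets (-0.43, 0.0566), or without any 1 of 13 of the 19 libraries (-0.54 to -0.47, adjusted p = 0.0529 to 0.0902). It held without young saline replicate 5, young ISRIB replicate 3, old saline replicates 3 and 5, or old ISRIB replicates 4 and 5.

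Within young macrophages 0 of 76 passed by edgeR, as did 0.0% of all genes. At an unadjusted p under 0.05, 6 were lower and 0 higher, against 5.51% and 6.92% of all genes. The median log2 change was -0.15, and 62 of 76 were negative, where the values over all genes are not given here. Mrpl28 changed by -0.62 (adjusted p = 0.141 by edgeR and 0.0408 by DESeq2, which called this 1 of the ribosomal genes and 119 genes in all, 0.524%) and Mrpl48 by -0.52 (unadjusted p = 0.0152 from edgeR). Within old macrophages edgeR and DESeq2 also called 0 of 76 (0.0% of all genes by edgeR). Here and below, where both tests are named, the share of all genes is edgeR's. In old macrophages 1 gene was lower and 0 higher at an unadjusted p under 0.05 (5.14% and 3.99% of all genes). This was Mrpl28, at -0.41 (unadjusted p = 0.0149 and adjusted p = 0.455 from edgeR), followed by Mrps28 at -0.52 (0.0665). The median was -0.04. The effect of ISRIB in old minus that in young macrophages passed for 0 of 76 by edgeR and DESeq2 (0.0% of all genes), with a median of 0.12. At an unadjusted p under 0.05, 1 was higher and 0 lower (2.07% and 3.03% of all genes), Mrpl2 (0.52, unadjusted p = 0.0423 from edgeR). Mrpl36 followed at 0.38. Across the 76 genes, the effects in old and young macrophages, which share no library, had Pearson's r of 0.310 against 0.200 over all genes. In both ages 41 were negative and 9 positive. With 62 of 76 negative in young mice, many shared negatives would arise even if the effects were unrelated.

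The following levels of marker genes stood beside this comparison. With both ages together, their ranges overlapped between saline and ISRIB macrophages. The summed level of 12 genes of mature alveolar macrophages ran from 5222 to 9540 CPM (median 6085) in saline macrophages and from 5706 to 14736 (median 7827) in ISRIB macrophages. Siglecf ran from 47.2 to 120.3 and from 60.0 to 155.7. Within young macrophages its ranges did not overlap, at 47.2 to 59.5 with saline and 60.0 to 84.0 with ISRIB. Within old macrophages they did, at 55.8 to 120.3 and 102.9 to 155.7. Proliferation genes ran from 491 to 1172 (median 804) and from 361 to 986 (median 535). B and plasma cell genes ran from 6.56 to 428.0 and from 7.58 to 591.6. The part of these in the change of Mrpl28 was not tested. All 7 mitochondrially encoded messages had a positive change with ISRIB, with a median of 0.11, and 0 of 7 passed by edgeR.

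**Figure D5:**
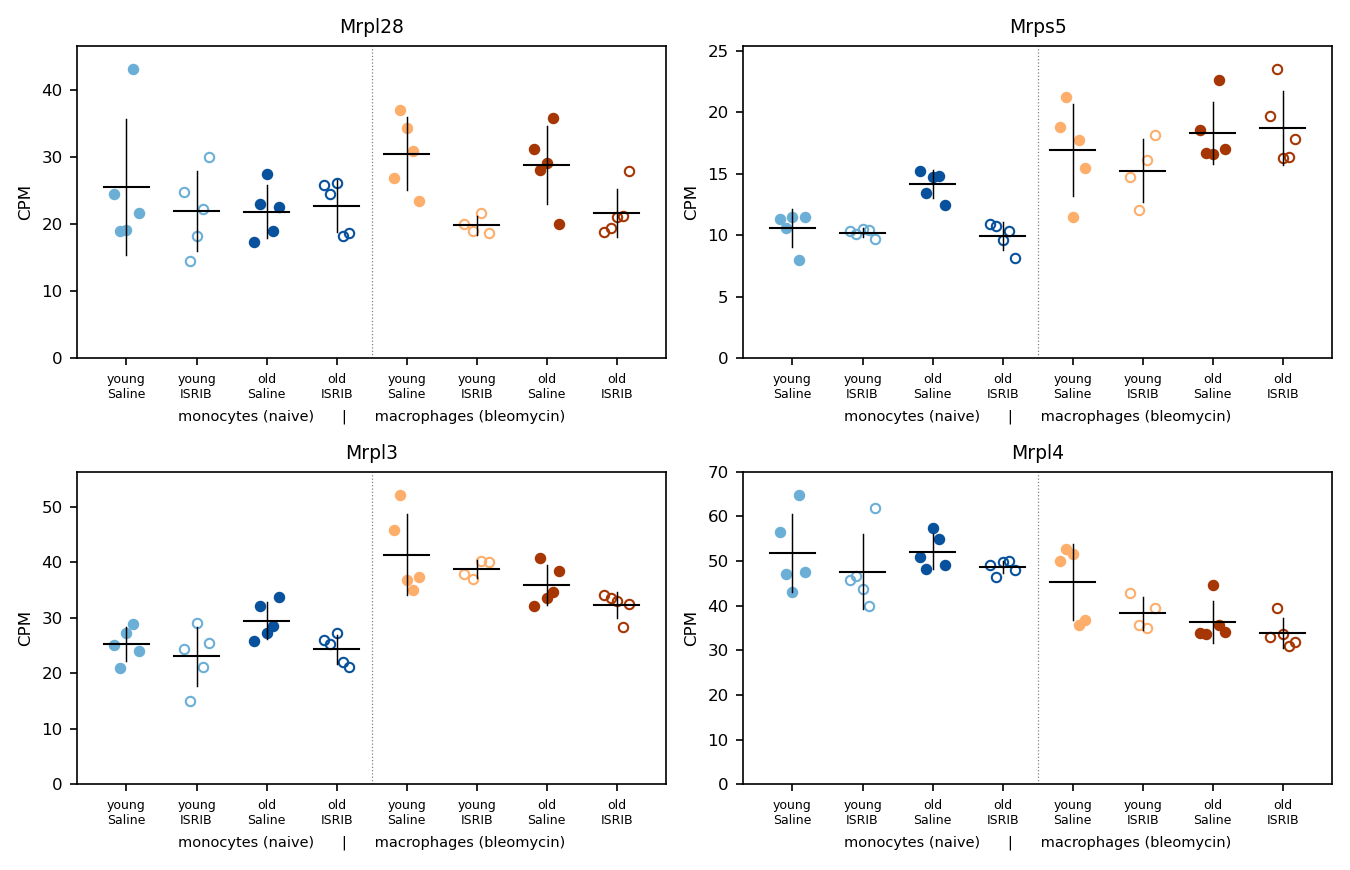
CPM (vertical axes) of Mrpl28, Mrps5, Mrpl3 and Mrpl4 in each library of the 8 groups (horizontal axes). Filled points are saline and open points ISRIB, light is young and dark is old, blue is monocytes and orange to brown macrophages, with lines for the mean and SD. Mrpl28 averages 20.8 in ISRIB and 29.6 in saline macrophages, and young saline monocyte replicate 4 stands at 43.1.

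In monocytes of naive mice no mitochondrial ribosomal gene passed the adjusted threshold with ISRIB. Averaged over both ages, edgeR and DESeq2 called 0 of 76, and 0.0% of all 12170 genes passed. The fitted changes were mostly negative: 59 of 76, with a median log2 change of -0.14 against -0.00 over all genes, of which 50.3% were negative. At an unadjusted p under 0.05, 11 were lower and 0 higher, against 3.55% and 3.94% of all genes. The smallest unadjusted p-values were those of Mrps5, at -0.29 (unadjusted p = 0.0123 from edgeR), and Mrpl18, a homologue of bacterial L18, at -0.27 (unadjusted p = 0.0133 from edgeR), both with an adjusted p of 0.617. Without young saline monocyte replicate 4, 5 were lower and 0 higher at an unadjusted p under 0.05 (8.06% of all genes in either direction), with a median of -0.10.

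Within old monocytes 0 of 76 passed by edgeR or DESeq2 (0.0% of all genes), 5 were lower and 0 higher at an unadjusted p under 0.05 (3.15% and 4.4% of all genes), and the median was -0.19. Mrps5 stood at 15.2, 13.5, 14.8, 14.8 and 12.5 CPM in old saline monocytes and at 10.9, 10.8, 9.64, 10.4 and 8.15 in old ISRIB monocytes. Its groups did not overlap, as also those of Mrpl12 and Mrps9 did not, each lower with ISRIB (0.616% of all genes). The log2 change of Mrps5 was -0.52 ± 0.15 (unadjusted p = 0.00186 and adjusted p = 0.439 from edgeR). In young monocytes Mrps5 stood at 11.4, 10.6, 11.5, 7.97 and 11.5 CPM with saline and 10.4, 10.1, 10.5, 10.4 and 9.69 with ISRIB, overlapping groups. Within young monocytes edgeR and DESeq2 called 0 (0.0% of all genes), with 1 higher and 2 lower at an unadjusted p under 0.05 (3.62% and 3.02% of all genes), of which Mrpl42 (-0.39, unadjusted p = 0.0346 from edgeR) had the smallest p-value. Without young saline replicate 4 this was 0 higher and 1 lower (5.94% of all genes), and the median went from -0.09 to -0.03. The difference of the ISRIB effect between ages in monocytes passed for 0 of 76 by edgeR and DESeq2 (0.0%), with 3 lower and 0 higher at an unadjusted p under 0.05 (3.16% and 3.94% of all genes), led by Mrpl49 (-1.005, unadjusted p = 0.0108 from edgeR) and Mrps31 (-0.80). Its median was -0.05, and -0.13 without that library. Effects in old and young monocytes had r of -0.07 across the 76 genes. The averaged effects in macrophages and monocytes had r of 0.0889, and whether ISRIB acted differently on the 2 cell types was not tested.

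Age was compared last, within each cell type. Without the alternatives named below, no mitochondrial ribosomal gene passed edgeR's quasi-likelihood test in any age comparison, in either cell type or treatment. In macrophages averaged over both treatments, 0 of 76 passed by edgeR or DESeq2, where 4.86% of all genes did. At an unadjusted p under 0.05, 7 were lower and 0 higher in old mice, against 7.7% of all genes lower and 10.1% higher. The median log2 change was -0.04, and 49 of 76 were negative.

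Mrpl3, a core large-subunit protein whose bacterial counterpart reaches toward the peptidyl transferase centre, stood at 45.9, 52.2, 36.8, 35 and 37.3 CPM in young saline macrophages and at 32.2, 40.8, 33.6, 34.8 and 38.4 in old ones. With ISRIB it stood at 38, 37, 40.2 and 40.2 in young and at 34.1, 33.6, 33.1, 28.4 and 32.6 in old mice. The saline groups overlapped and the ISRIB groups did not, old mice being lower. The share of all genes whose ISRIB groups did not overlap is not given here, so this has no baseline. Averaged over treatments the log2 change was -0.23 ± 0.08 (unadjusted p = 0.0104 and adjusted p = 0.115 from edgeR).

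Mrpl4, of the exit tunnel, stood at 49.96, 52.6, 51.6, 35.5 and 36.7 CPM in young saline macrophages and at 33.8, 33.5, 44.5, 35.6 and 34.1 in old ones. With ISRIB it stood at 42.7, 35.7, 35 and 39.5 in young and at 33.1, 39.5, 33.7, 31 and 31.7 in old mice. Both pairs of groups overlapped. Its change was -0.25 (adjusted p = 0.135 from edgeR), and it passed with GC and length offsets (-0.30, adjusted p = 0.0389). Without young ISRIB macrophage replicate 1, another gene, Mrps21, passed as lower (-0.36, adjusted p = 0.0479 from edgeR), as did 2.06% of all genes. B and plasma cell genes, summed, were at 6.56 to 30.1 CPM in young and at 22.9 to 428.0 in old saline macrophages. Their part in these values was not tested.

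Within saline macrophages 0 of 76 passed by edgeR or DESeq2 (1.16% of all genes), 5 were lower and 0 higher at an unadjusted p under 0.05 (4.78% and 7.91% of all genes), and the median was -0.10. Mrpl21 (-0.47, unadjusted p = 0.0182 from edgeR) and Mrpl4 (-0.32, unadjusted p = 0.0196 from edgeR) had the smallest p-values. Within ISRIB macrophages 0 passed (0.937% of all genes), by DESeq2 as well, with 1 lower and 0 higher at an unadjusted p under 0.05 (5.78% and 6.43% of all genes) and a median of 0.02. The 1 was Mrpl3 (-0.26, unadjusted p = 0.042 from edgeR). Mrpl12 followed at 0.28.

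In monocytes averaged over both treatments, 0 of 76 passed by edgeR or DESeq2, against 0.123% of all genes, and 4 were higher and 0 lower in old mice at an unadjusted p under 0.05 (4.54% and 3.71% of all genes). Mrps9 (0.25, unadjusted p = 0.0148 from edgeR) and Mrpl13 (0.44, unadjusted p = 0.0263 from edgeR) led these, and the median was -0.00. Without young saline replicate 4, 5 were higher and 0 lower (11.3% of all genes in either direction). The median was then 0.05, and the smallest adjusted p of the 76 genes went from 0.448 to 0.194 by edgeR. Within saline monocytes 0 passed (0.0247% of all genes), with 4 higher and 0 lower at an unadjusted p under 0.05 (5.05% and 3.76% of all genes), among them Mrps5 (0.43, unadjusted p = 0.00784 and adjusted p = 0.356 from edgeR) and Mrpl11 (0.55). In those libraries Mrps5 ran from 7.97 to 11.5 CPM in young and from 12.5 to 15.2 in old mice, without overlap. The library at 7.97 was young saline replicate 4. Mrps9 did not overlap either, being higher in old mice. The share of all genes whose groups did not overlap is not given here. The median log2 change in saline monocytes was 0.02, and 0.13 without young saline replicate 4. Within ISRIB monocytes 0 passed (0.0% of all genes), and 1 was higher and 2 lower at an unadjusted p under 0.05 (4.11% and 2.49% of all genes). Mrpl20 (0.42, unadjusted p = 0.0106 from edgeR) and Mrps25 (-0.52, unadjusted p = 0.0222 from edgeR) had the smallest p-values. DESeq2 also called 0 in both. The effect of age in macrophages minus that in monocytes passed for 0 of 77 by edgeR and DESeq2 (0.743% of all genes). At an unadjusted p under 0.05, 6 were lower and 0 higher, against 5.09% and 6.37% of all genes. Mrpl3 (-0.38, unadjusted p = 0.00649 and adjusted p = 0.192 from edgeR) and Mrpl13 (-0.62, unadjusted p = 0.0103 from edgeR) led these. Without young saline monocyte replicate 4, 0 of 77 passed, and 8 were lower and 0 higher (13.2% of all genes in either direction). The median went from -0.02 to -0.08, and the smallest adjusted p of the 77 genes from 0.192 to 0.0535 by edgeR.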

How the data were processed

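Per the submitters' processing notes, reads were handled with bcl2fastq 2.19.1, FastQC, Trimmomatic 0.36, STAR 2.6.0 and HTSeq 0.11.2 on mm10. Libraries were made from 3 ng of RNA with polyA selection, per the labels' protocols. The deposited values are the authors' counts of reads per Ensembl gene, not normalized. Strand setting and annotation release were not given in the sources used here. Symbols, exon lengths and overlaps came from GENCODE mouse release 21 (GRCm38), which matched 97.96% of IDs, and promoters from RefSeq.

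The members, lists and tests were chosen with earlier results of these data known. Genes were kept by filterByExpr (minimum count 10, minimum total 15), scaled by TMM and tested with edgeR 4.0.16 (R 4.3.3), with Benjamini-Hochberg adjustment over all genes kept, called under 0.05. Cell types were compared in a fit of 39 libraries (13587 genes), ISRIB and age in fits of 19 macrophage (12171 genes) and 20 monocyte libraries (12170). CPM values use TMM factors of all libraries. The tests were tried on simulated data. Genes given by library were, among cell types, up to 6 per direction with the largest change and at least 5 CPM, elsewhere up to 3 called or the 2 smallest p-values, plus Mrpl12, Mrps12, Mrps18a, Mrps18b, Mrps18c, Mrpl44, Mrps36 and Mrpl58. Alternatives were DESeq2 1.42.0 and its size factors, limma 3.58.1 voom, no filter, other sets of libraries, a replicate block, offsets for GC and length, and each library left out. Tables and figures were made with Python 3.11.15, pandas 2.3.3 and scipy 1.17.1.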

Additional observations from a re-analysis of the deposited data

Results flagged for a closer look

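In groups of 4 or 5 libraries, a library was marked where its gap to the nearest other exceeded Dixon's 95% limit of the group's range. Of 184 groups of values examined, over 22 genes and the summed level, 13 were marked; chance alone marks about 5% of groups. In young saline monocytes, replicate 4 was highest for Mrpl28 (43.14 CPM, next 24.52) and Mrps18c (30.67, next 17.39) and lowest for Mrps5 (7.974, next 10.6). It is the library that correlated least with its group. In young ISRIB monocytes, replicate 2 was lowest for Mrpl12 (10.39 CPM, next 18.05), and replicate 5 was highest for the summed level (1405 CPM, next 1241). In old saline monocytes, replicate 3 was highest for the summed level (1527 CPM, next 1373). In old ISRIB monocytes, replicate 4 was lowest for Mrpl44 (5.699 CPM, next 10.49).

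Among macrophages, Mrpl44 was lowest in young saline replicate 3 (7.719 CPM, next 16.74) and highest in young ISRIB replicate 3 (21.36, next 17.36). Mrps18b was highest in young saline replicate 1 (15.41 CPM, next 7.726). Mrpl4 was highest in old saline replicate 3 (44.49 CPM, next 35.62). In old ISRIB macrophages Mrpl28 was highest in replicate 5 (27.88 CPM, next 21.23), and Mrpl3 was lowest in replicate 4 (28.36, next 32.57).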

How the results depend on the processing

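Of 416 alternative counts of passing genes over 17 comparisons, 397 were within 1.5 times the reported count, and no named gene changed direction. In most of these comparisons the reported count was 0 or 1, so this says little about them. The counts also pool both directions, so they do not register the shift to 31 higher and 10 lower with GC and length offsets in saline mice. For macrophages against monocytes, leaving out 1 library gave 43 to 52 of 77 genes in saline mice (38 to 46 higher) and 46 to 53 in ISRIB mice (41 to 48 higher). The median log2 change of the 77 genes under GC and length offsets was 0.1476 in saline and 0.2076 in ISRIB mice. For ISRIB in young macrophages, 1 gene (Mrpl28) passed with no filter on low counts and 1 with DESeq2. For ISRIB in macrophages of both ages, 0 passed with all 39 libraries in 1 fit and 0 with GC and length offsets, and leaving out 1 library gave 0 to 1. For age in macrophages over both treatments, 1 gene passed with the offsets, and leaving out 1 library gave 0 to 1 (Mrps21). The cause of these changes was not tested.

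Replicate numbers gave no sign of pairing the libraries, but correlations of this kind cannot exclude it. Deviations of same-numbered libraries correlated between -0.14 and 0.15 in macrophages and between -0.18 and 0.25 in monocytes, and the best match had the same number in 22 of 114 cases. With the replicate block, 47 genes (41 higher, 6 lower) passed in saline and 51 (46 and 5) in ISRIB mice, with medians of 0.3537 and 0.3979. The block with GC and length offsets gave 41 (31 and 10) and 42 (33 and 9), with medians of 0.1425 and 0.2038. Mrpl28 also passed with the block for ISRIB in macrophages of both ages (-0.52, edgeR adjusted p = 0.0291), where 2.82% of all genes passed. Of 47 pairs of a named gene and a comparison, 43 kept their call and direction under the alternatives run. The exceptions are Mrpl28 in young and in all macrophages, Mrpl4 with age and Mrpl9 between cell types. Depth limits Mrpl53, which was at 0 in 2 libraries.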
